A study of Mus musculus with 93 samples.

Results

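Liver expression was examined for 85 chromatin modifying and remodelling genes, out of 53465 genes listed, in mice of 7 strains on a control diet (CD) or a Western diet (WD). The genes were taken by symbol if they had at least 10 counts in at least 5 mice, leaving out pseudogenes and the Y-linked Kdm5d. The symbols were those of lysine demethylases (Kdm), lysine methyltransferases (Kmt, Setd), and CHD and related remodellers (Chd). They also took in SWI/SNF, ISWI, and related genes (Smarc), ARID proteins (Arid), histone deacetylases (Hdac), and lysine acetyltransferases (Kat). The symbols matched 95 genes, of which 8 were not expressed (Arid3c, Chd5, Kdm4d, and 5 pseudogenes), 1 was an expressed pseudogene (Smarce1-ps1), and 1 was Kdm5d. All 85 members passed the filter on low counts that the tests used, as did 19110 genes in all.

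DNA in the nucleus is wound around histones, and enzymes that add or remove methyl and acetyl groups on histone lysines mark regions as active, poised, or silent. Remodellers use ATP to slide, eject, or exchange nucleosomes and so set which promoters and enhancers transcription factors can reach. In liver these enzymes take part in fasting and feeding responses, lipid and bile acid gene control, and the response to injury. Their activity is set largely by cofactors, partners, and modification of the proteins, so an RNA level is not a measure of enzyme activity.

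The samples were whole livers of 93 male mice of 7 inbred strains, namely PWK/PhJ, CAST/EiJ, and WSB/EiJ, which are wild-derived, and 129S1/SvImJ, A/J, C57BL/6J, and DBA/2J. All mice were kept at 30°C (thermoneutrality) from 6 wk of age, were given CD (10% of energy from fat) or WD (40% of energy from fat) from 7 wk for a period of 17 wk, and were taken at 24 wk, so every group shared the warm housing and no group was kept at room temperature. On CD and WD, respectively, there were 8 and 8 C57BL/6J mice, 6 and 7 DBA/2J, 5 and 6 A/J, 7 and 6 129S1/SvImJ, 6 and 6 WSB/EiJ, 7 and 8 CAST/EiJ, and 6 and 7 PWK/PhJ. Each mouse was a separate sample, and within a strain the animals are near-identical, so the spread of a group is not that of an outbred population.

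Between 40020424 and 49894856 reads per mouse fell on genes, and reads of every strain had been mapped to the C57BL/6J genome, with 1.66 to 14.8% of reads unmapped. Levels are CPM, counts scaled to the TMM-adjusted library size, and changes are log2 fold changes of WD over CD with their SE from limma-voom, with p-values adjusted by Benjamini–Hochberg over all genes tested. A gene was called when its adjusted p was below 0.05. Of the members, 36 overlapped exons of another gene, and the strand setting of the counting is not given in the sources used here. Chd2 and Setd1a, for example, overlapped a transcript on their own strand, so part of their reads could not be assigned.

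Each strain was run in 2 cohorts of mice, and CAST/EiJ in 3. In CAST/EiJ, CD replicates 5, 6, and 7, all of cohort 4, stood apart from most of the other CD mice in several members. Kdm1b, a histone H3K4 demethylase that uses flavin, was at 12.8, 18.0, and 17.6 CPM in these mice, whereas the other 4 CD mice ranged from 22.6 to 36.6 CPM. Replicate 4, also of cohort 4, was at 36.6 CPM, so the cohort did not move as a whole. The same 3 mice held the lowest CD values of Kmt5c and Hdac6 and the highest of Setd4 and Smarca5. With cohort 4 left out, which left 3 CD and 5 WD mice, limma-voom called 0 members in CAST/EiJ (7 at an unadjusted p below 0.05, 3 higher and 4 lower), edgeR called 1, and 1.82% of all genes tested passed in limma-voom. All 20 calls of members made in CAST/EiJ with all mice were thus lost without cohort 4, and this holds for every member called there below. With all mice, 19.5% of all genes were called there, so calls were lost over all genes as well. Cohort 4 alone, with 4 CD and 3 WD mice, had 7 members higher and 9 lower in limma-voom, with 16.8% of all genes called. The part of the smaller number of mice in the lost calls was not tested. Among the other libraries, C57BL/6J CD replicate 2 stood apart, with a correlation of 0.959 with the rest of its group and 97.7 CPM summed over 6 proliferation genes, the highest of its group.

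WD moved few members far, with a log2 fold change over 1 in size for at most 2 members in any strain. In C57BL/6J, 9 members rose and 21 fell, where 14.3% of all genes tested rose and 11.9% fell. In 129S1/SvImJ, 8 rose and 26 fell (14.5% and 13.6% of all genes). DBA/2J had 5 higher and 14 lower members (10.2% and 7.77% of all genes), and CAST/EiJ 8 and 12 (9.77% and 9.73%). Few members were called in the remaining strains: 5 higher and 6 lower in PWK/PhJ (15.1% and 14.5%), 3 and 3 in A/J (4.39% and 4.64%), and only 1 and 4 in WSB/EiJ (4.97% and 3.97%). The A/J count of 6 depended on the setting, with 26 members called with sample quality weights, 13 when the strain was fitted on its own, and 3 to 12 with 1 mouse left out. Fitted on its own, WSB/EiJ had 1 call and C57BL/6J 14. The share of all genes called in these other settings was not counted, so the members' counts there cannot be set against it. In either direction the calls of the main fit were 35.3% of the members in C57BL/6J (26.2% of all genes), 22.4% in DBA/2J (18.0%), 7.06% in A/J (9.03%), 40% in 129S1/SvImJ (28.0%), 5.88% in WSB/EiJ (8.94%), 23.5% in CAST/EiJ (19.5%), and 12.9% in PWK/PhJ (29.6%).

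The share of members that fell was thus above the share of all genes in C57BL/6J (24.7% of the members), DBA/2J (16.5%), 129S1/SvImJ (30.6%), CAST/EiJ (14.1%), and by less than 1 percentage point in WSB/EiJ (4.71%), and the share that rose was below it in all 7 strains with TMM scaling. In PWK/PhJ and A/J the share of members called was below that of all genes in both directions. The median log2 fold change of the members was -0.08 in C57BL/6J, -0.09 in DBA/2J, -0.08 in A/J, -0.12 in 129S1/SvImJ, -0.04 in WSB/EiJ, 0.02 in CAST/EiJ, and -0.01 in PWK/PhJ, with the median of all genes between -0.01 and 0.02.

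Scaling mattered for the split of calls. With upper-quartile normalization, 10 members rose and 11 fell in 129S1/SvImJ (11 of 21 calls lower, 52.4%, against 76.5% with TMM), 12 rose and 11 fell in CAST/EiJ (47.8% against 60%), and 9 rose and 4 fell in PWK/PhJ (30.8% against 54.5%), while C57BL/6J (9 and 24) and DBA/2J (5 and 12) stayed near the TMM split. The share of members that rose in CAST/EiJ was then above the 11.6% of all genes, and the share that fell in 129S1/SvImJ was 12.9% beside 8.6% of all genes. The median of the members minus that of all genes was nearly unmoved by the scaling, because a scaling factor shifts all genes of a mouse alike. This difference is therefore no test of how the calls depend on scaling. With TMM the difference was -0.08 in C57BL/6J, -0.09 in DBA/2J, and -0.12 in 129S1/SvImJ.

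Members differ from the average gene in size and level. Their median exon length was 7777 bases against 3558 for all genes tested, and their median level was 4.61 against 2.18 on the log2 CPM scale, so small changes were measured more tightly. In 129S1/SvImJ the median SE of a log2 fold change was 0.0852 for members and 0.162 for all genes, and called members moved by a median of 0.285 on the log2 scale against 0.514 for all called genes. Among genes at least as long as the members' lower quartile of 5179 bases, 19.0% fell in 129S1/SvImJ and 22 of 64 such members did (34.4%). The values for lower genes were 12.9% and 20.3% in C57BL/6J, 12.2% and 17.2% in CAST/EiJ, 3.44% and 3.12% in WSB/EiJ, 9.12% and 18.8% in DBA/2J, 9.78% and 4.69% in PWK/PhJ, and 5.21% and 3.12% in A/J. For higher genes of this length the share of members was below that of all genes in every strain, at 9.38% against 14.6% in C57BL/6J, 4.69% against 10.4% in DBA/2J, 3.12% against 4.72% in A/J, 9.38% against 14.5% in 129S1/SvImJ, 7.81% against 10.1% in CAST/EiJ, and 6.25% against 20.0% in PWK/PhJ, with no such member called in WSB/EiJ (5.13% of all genes).

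**Figure D1:**
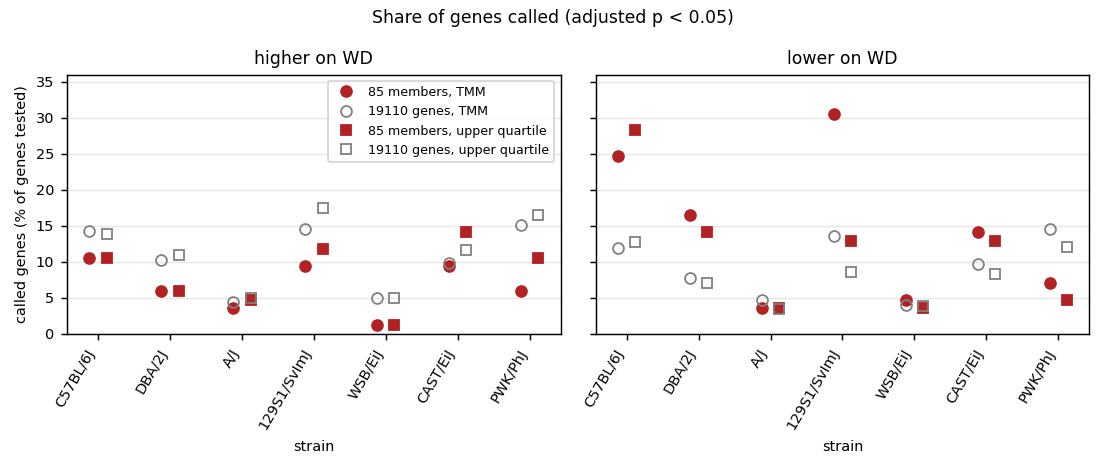
Share of genes called at an adjusted p below 0.05 (%), higher on WD in the left panel and lower on WD in the right panel, for each strain. Filled symbols are the 85 members and open symbols all genes tested, with circles for TMM and squares for upper-quartile scaling. In the right panel the filled circle of 129S1/SvImJ (30.6%) lies above the open one (13.6%), and under the other scaling the members' share there is lower.

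Over all strains, the mean diet effect was called for 57 members, 19 higher and 38 lower, where 27.1% of all genes rose and 24.5% fell (51.6% in either direction). A call in at least 1 strain was made for 65 members (67.1% of all genes). Of these, 32 were called in 1 strain only, and the matching share of all genes was not counted. The same direction in at least 4 strains was seen for 5 members, or 5.88% of them, against 8.42% of all genes. These were Setd4, Smarca4, Kdm3a, Hdac11, and Chd1l, with Setd4 and Smarca4 also reaching 5 strains (4.00% of all genes). The last 3 of the 5 are named for this count. Opposite calls in different strains were made for 3 members (5.42% of all genes), namely Hdac5, Kmt5c, and Kdm1a. The rise of each rested on a call that other settings lost, since those of Hdac5 and Kmt5c were in CAST/EiJ and went without cohort 4, and that of Kdm1a in PWK/PhJ went with edgeR and with all genes of any count in the fit.

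**Figure D2:**
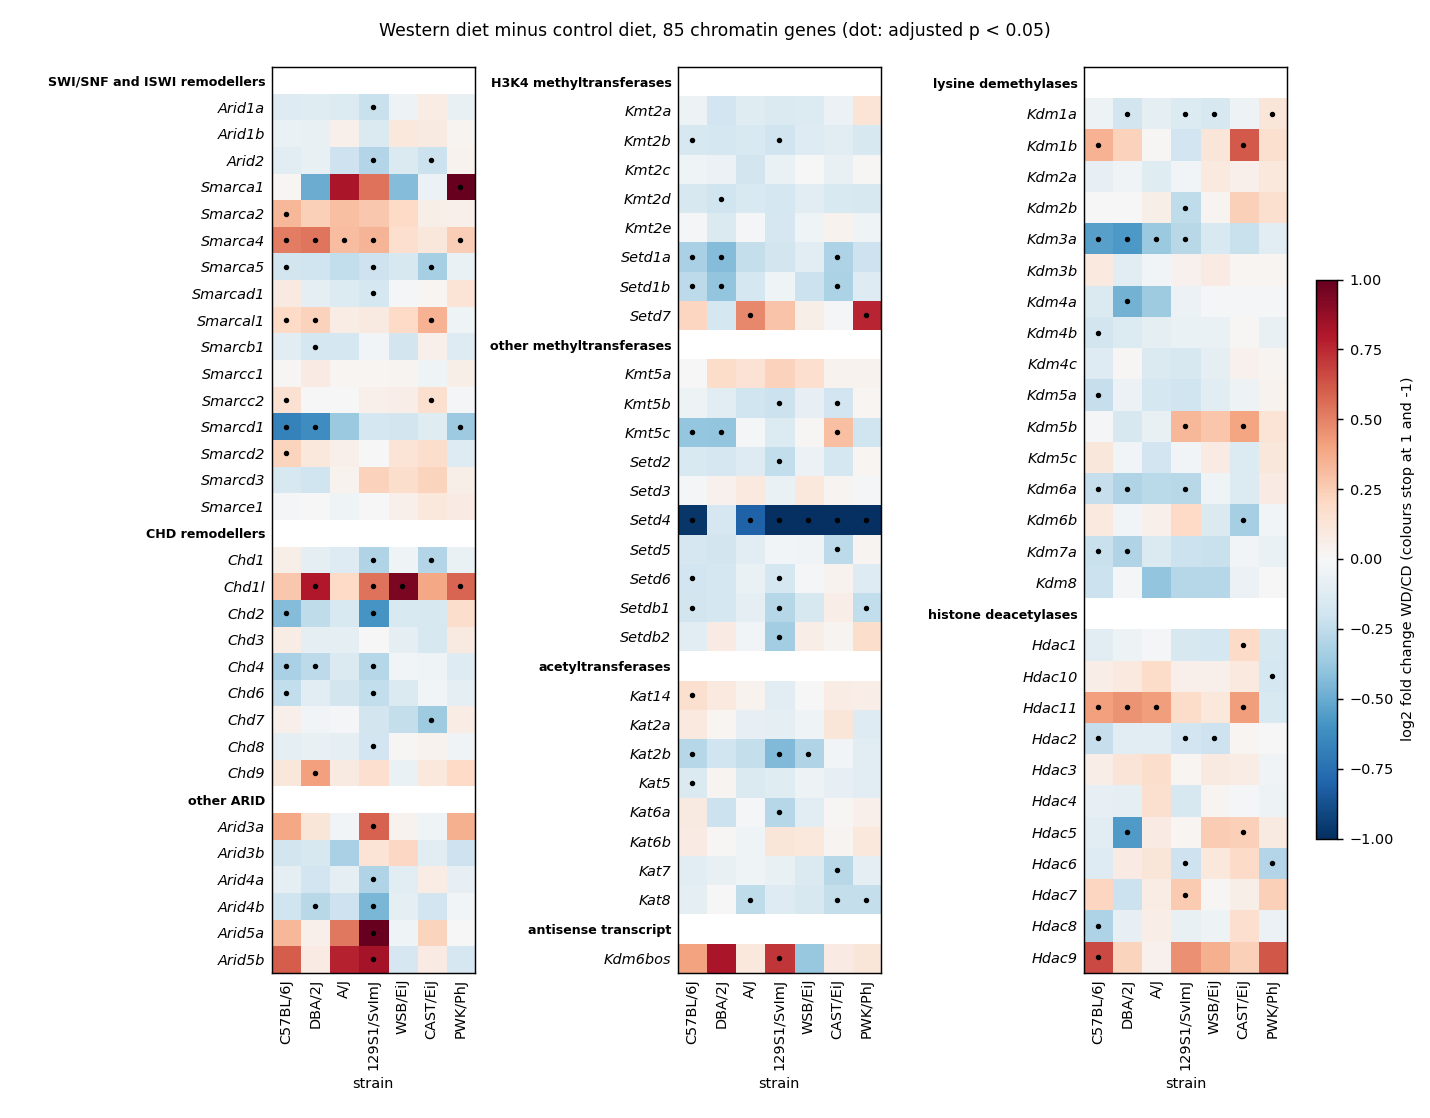
Log2 fold change of WD over CD for each of the 85 members (lines, grouped by role) in each of the 7 strains (columns). Blue is lower and red is higher on WD, colours stop at 1 and -1, and a dot marks an adjusted p below 0.05. Setd4 is blue with a dot in 6 strains, and most other cells are pale.

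In bulk liver, fewer cells of a type and less RNA per cell cannot be told apart, and WD moved markers of other cell types as well. Of 13 leukocyte markers, 11 rose in 129S1/SvImJ, 9 in C57BL/6J, 7 in PWK/PhJ, 4 in WSB/EiJ, 2 in A/J, and 1 in CAST/EiJ. In DBA/2J none passed in limma-voom (1 lower at an unadjusted p below 0.05), and their median log2 fold change was -0.12. Their summed level went from between 107 and 167 CPM on CD to between 314 and 528 CPM on WD in 129S1/SvImJ, and from between 158 and 557 to between 333 and 742 CPM in C57BL/6J. The range in DBA/2J was 169.5 to 231 CPM on CD and 131 to 234 CPM on WD. By the mean diet effect, 4 of 7 Kupffer cell, 5 of 9 stellate cell, 3 of 7 endothelial, 3 of 5 cholangiocyte, and 6 of 6 proliferation markers rose, 2 endothelial markers fell, and 8 of 10 hepatocyte markers fell. Ribosomal protein transcripts fell in 12 of 12 cases, and of 4 nuclear-retained RNAs, 1 fell. No marker was at 0 in every mouse. In 129S1/SvImJ 26 members fell with TMM scaling and 11 with upper-quartile scaling. There, 6 of 10 hepatocyte markers fell with TMM scaling and 4 with upper-quartile scaling. DBA/2J had 14 lower members, and 3 of 10 hepatocyte markers and 2 of 4 nuclear-retained RNAs fell there. The part of these shifts in the members' changes was not tested in any strain.

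Of 8 genes listed by family as histone H3 lysine 4 (H3K4) methyltransferases, 4 fell by the mean diet effect (Kmt2b, Kmt2d, Setd1a, and Setd1b). Of the rest, 1 rose (Setd7) and the other 3 did not pass, where 24.5% of all genes fell and 27.1% rose. Methylation at this lysine marks active promoters and enhancers, but a place in the list does not show that a protein has this activity. The group had a median log2 fold change of -0.12 against 0.01 for all genes. Setd1a and Setd1b are the catalytic subunits of SET1 complexes, and they, with Kmt2b, are named here for this count. Setd1a fell in C57BL/6J, DBA/2J, and CAST/EiJ, with the largest change in DBA/2J, where CD mice were at 10.97, 11.5, and 14.4 CPM (lowest, median, highest) and WD mice at 7.36, 9.28, and 10.3. The 7 WD mice were all below the 6 CD mice (log2 fold change -0.43, SE 0.10, adjusted p = 0.000559). Setd1b fell in the same 3 strains, with a log2 fold change of -0.39 in DBA/2J (SE 0.10, adjusted p = 0.00259). In C57BL/6J Setd1b was at -0.40 in cohort 1 and 0.03 in cohort 2. Without cohort 4, the CAST/EiJ values were -0.14 (adjusted p = 0.763) for Setd1a and -0.32 (adjusted p = 0.313) for Setd1b. The F test for unequal diet effects between strains did not pass for either gene (adjusted p = 0.432 for Setd1a and 0.338 for Setd1b).

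Kmt2d and Kmt2c, the enhancer H3K4 monomethyltransferases, are given side by side. Kmt2d had a mean effect of -0.16 (SE 0.03, adjusted p = 5.57e-07), and its log2 fold changes lay between -0.20 and -0.11 in the 7 strains, with a call in DBA/2J only (-0.20, adjusted p = 0.0376). Which strains passed depended on the setting, since the DBA/2J call was lost with DESeq2, upper-quartile normalization, and genes of any count, and a call was gained in 129S1/SvImJ in 3 of 9 other settings and in C57BL/6J in 2 of 9. Kmt2c had a mean effect of -0.06 (SE 0.04, adjusted p = 0.234), with no call in any strain. The difference between the 2 genes was not tested.

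Among the other methyltransferases, 7 of 10 fell and 1 rose by the mean effect (24.5% and 27.1% of all genes), with a median of -0.11. In 129S1/SvImJ 6 of 10 fell (13.6% of all genes) and in C57BL/6J 4, but with upper-quartile normalization 3 fell in 129S1/SvImJ (8.6% of all genes) and 4 in C57BL/6J. Setd2, which trimethylates H3K36 along transcribed genes, fell in 129S1/SvImJ from 39.8, 42.3, and 46.0 CPM (lowest, median, highest) to 32.1, 35.7, and 41.3 CPM (log2 fold change -0.25, SE 0.08, adjusted p = 0.0159), with 5 of 6 WD mice below all CD mice. This call was among those lost with upper-quartile normalization. Kmt5a, the H4K20 monomethyltransferase, was not called in any strain and was the member of this group with a higher mean effect (0.11, SE 0.04, adjusted p = 0.0116).

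Lysine demethylases fell more often than they rose. By the mean effect 9 of 16 fell (24.5% of all genes) and 2 rose (27.1%), Kdm1b and Kdm5b, with a median of -0.07. Kdm6a, which removes methyl groups from H3K27 and also belongs to enhancer methyltransferase complexes, fell in C57BL/6J (-0.23, adjusted p = 0.0217), DBA/2J (-0.30, adjusted p = 0.0119), and 129S1/SvImJ (-0.28, adjusted p = 0.0135). The 129S1/SvImJ call was lost with upper-quartile normalization, and in C57BL/6J Kdm6a was at -0.43 in cohort 1 and -0.03 in cohort 2. In DBA/2J the 7 WD mice (11.1 to 14.2 CPM) were all below the 6 CD mice (14.6 to 18.1 CPM). Kdm6b, the inducible H3K27 demethylase, was called in CAST/EiJ only (-0.34, SE 0.12, adjusted p = 0.0314), where the CD mice ranged widely, from 22.9 to 59.5 CPM, and the WD mice from 22.7 to 40.3. The change was 0.25 in cohort 1, -0.24 in cohort 3, and -0.45 in cohort 4, and it was -0.10 with an adjusted p of 0.879 without cohort 4. Kdm5b, an H3K4 demethylase, rose in 129S1/SvImJ (0.33, adjusted p = 0.0282) and CAST/EiJ (0.40, adjusted p = 0.00676). Without cohort 4 the CAST/EiJ value of Kdm5b was 0.25 with an adjusted p of 0.606.

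Of 9 genes with a Chd symbol, the related Chd1l among them, 5 fell and 2 rose by the mean effect (24.5% and 27.1% of all genes), with a median of -0.10. In 129S1/SvImJ, 5 fell and 1 rose (13.6% and 14.5% of all genes), whereas with upper-quartile normalization 2 fell and 1 rose (8.6% and 17.5%). Chd7, which binds enhancers, was called in CAST/EiJ only (-0.35, SE 0.12, adjusted p = 0.025) and was at -0.25 with an adjusted p of 0.583 there without cohort 4. Chd3, an ATPase of the NuRD corepressor complex, was not called in any strain, and its mean effect was -0.04 (SE 0.04, adjusted p = 0.468).

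The group of SWI/SNF, ISWI, and related genes moved in both directions, with 5 of 16 higher and 5 lower by the mean effect and a median of 0.03. These shares (31.2% each) were near those of all genes (27.1% and 24.5%). The group was drawn by symbol and holds related genes outside these complexes. Smarcal1, such a gene, was among those higher (0.16, SE 0.02, adjusted p = 5.77e-08). Both SWI/SNF ATPases rose by the mean effect. Smarca4 (BRG1) is described below with the genes shared by several strains. Smarca2 (BRM) had a mean effect of 0.21 (SE 0.04, adjusted p = 9.58e-06), was called in C57BL/6J, and had log2 fold changes between 0.05 and 0.33 in the 7 strains. In C57BL/6J it was at 47.7, 95.1, and 120 CPM on CD (lowest, median, highest) and 91.5, 112, and 130 CPM on WD, and the groups overlapped, with 2 of 8 WD mice above all CD mice (adjusted p = 0.00646). The value was 0.60 in cohort 1 and 0.11 in cohort 2.

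Smarca5, the ISWI ATPase, fell in C57BL/6J (-0.19, adjusted p = 0.0399), 129S1/SvImJ (-0.21, adjusted p = 0.0408), and CAST/EiJ (-0.34, adjusted p = 0.000391). In C57BL/6J it was at -0.47 in cohort 1 and 0.11 in cohort 2, so the direction was not shared there, and the call was lost in 5 of 9 other settings. The 129S1/SvImJ call was lost in 4 of 9, upper-quartile normalization among them. In CAST/EiJ it was at -0.20 with an adjusted p of 0.384 without cohort 4. Smarcd1 (BAF60a), a subunit that links SWI/SNF to nuclear receptors, fell in C57BL/6J from 6.79, 11.8, and 24.0 CPM to 5.69, 7.26, and 9.37 (log2 fold change -0.67, SE 0.12, adjusted p = 1.49e-05). The groups overlapped, with 2 of 8 WD mice below all CD mice. The change was -1.11 in cohort 1 and -0.31 in cohort 2, and the CD mouse at 24.0 CPM stood apart from its group. DBA/2J showed a fall as well (-0.62, SE 0.15, adjusted p = 0.00205), with all 7 WD mice (5.15 to 7.56 CPM) below the CD mice (8.20 to 12.1 CPM). The PWK/PhJ call was at the threshold (-0.36, adjusted p = 0.0459) and was lost with edgeR and DESeq2.

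The remaining ARID proteins had 3 of 6 higher and 2 lower by the mean effect (27.1% and 24.5% of all genes), with a median of 0.06. All the rises by strain were in 129S1/SvImJ, where 3 of 6 rose and 2 fell (14.5% and 13.6% of all genes). Arid4b, a subunit of the SIN3 corepressor complex, fell there from 24.8, 27.2, and 30.4 CPM to 15.5, 19.9, and 24.9 (log2 fold change -0.45, SE 0.09, adjusted p = 7.79e-05), with 5 of 6 WD mice below all CD mice. It also fell in DBA/2J (-0.28, adjusted p = 0.025). Arid5b, a DNA-binding coactivator with a part in fat storage, rose in 129S1/SvImJ from 31.7, 37.4, and 74.5 CPM to 42.5, 89.97, and 106 (0.84, SE 0.27, adjusted p = 0.0142), with 4 of 6 WD mice above all CD mice. Its log2 fold change there was 1.29 in cohort 3 and 0.45 in cohort 5.

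Histone deacetylases showed no common direction, with 4 of 11 higher and 2 lower by the mean effect (27.1% and 24.5% of all genes) and a median of 0.00. Hdac1, Hdac2, and Hdac3 are the catalytic subunits of the nuclear corepressor complexes. Hdac2 fell in C57BL/6J from 22.1, 24.1, and 27.7 CPM to 19.4, 21.2, and 21.8 CPM, with all 8 WD mice below the CD mice (log2 fold change -0.23, SE 0.04, adjusted p = 4.74e-05), and also fell in 129S1/SvImJ (-0.19, adjusted p = 0.00229) and WSB/EiJ (-0.20, adjusted p = 0.00792), although the former was lost with upper-quartile normalization and the latter when the strain was fitted on its own. Hdac1 was called in CAST/EiJ only (0.19, SE 0.07, adjusted p = 0.0321), and its effect there exceeded the average of the other 6 strains by 0.31 (SE 0.07, adjusted p = 0.00219). The call was lost in 5 of 10 other settings. Without cohort 4 the change was 0.21 (adjusted p = 0.361) and the difference from the other strains 0.32 (adjusted p = 0.0814), and within cohorts 1, 3, and 4 the change was 0.01, 0.31, and 0.14. Hdac3 was not called in any strain, with log2 fold changes from -0.03 to 0.18 and a mean effect of 0.08 (SE 0.02, adjusted p = 0.00187).

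Of 8 acetyltransferases, 4 fell by the mean effect (24.5% of all genes) and the other 4 did not pass (median -0.08). Kat2b (PCAF), a coactivator that acetylates H3K9, fell in C57BL/6J (-0.28, adjusted p = 0.00085), 129S1/SvImJ (-0.44, SE 0.08, adjusted p = 5.5e-06), and WSB/EiJ (-0.30, adjusted p = 0.00649). In 129S1/SvImJ the CD mice were at 112, 118, and 140 CPM and the WD mice at 73.5, 89.5, and 99.5, with no overlap. In CAST/EiJ it was at -0.03, and this exceeded the average of the other 6 strains by 0.23 (SE 0.08, adjusted p = 0.0292). Without cohort 4 this difference was 0.23 with an adjusted p of 0.321. Kat8 (MOF), which acetylates H4K16, fell in A/J (-0.25, adjusted p = 0.0245), CAST/EiJ (-0.24, adjusted p = 0.00591), and PWK/PhJ (-0.24, adjusted p = 0.00373). Without cohort 4 the CAST/EiJ value of Kat8 was -0.11 with an adjusted p of 0.752. In A/J the 6 WD mice (11.6 to 14.5 CPM) were below the 5 CD mice (14.6 to 17.6 CPM). The antisense transcript Kdm6bos, which matched the symbol rule but encodes no enzyme, was at a low level and shares exonic bases with Kdm6b on the other strand, so its value is uncertain. It was at 0.168 to 0.511 CPM in the mice of 129S1/SvImJ, where it rose (0.72, adjusted p = 0.0417).

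Setd4, a SET-domain protein with reported activity on histones and on other proteins, showed the largest mean effect of the members (-1.05, SE 0.10, adjusted p = 1.23e-14). It lies at chr16:93583457-93604063 on the minus strand (GRCm38) and overlapped a transcript on the other strand by 60 exonic bases. It fell in 6 strains. In C57BL/6J it went from 6.48, 7.94, and 12.5 CPM on CD (lowest, median, highest) to 2.21, 4.83, and 6.46 on WD, so that all 8 WD mice were below all 8 CD mice. The log2 fold change was -0.97 (SE 0.20, adjusted p = 0.000138).

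For Setd4 in A/J, the CD mice were at 18.1, 19.5, 18.8, 18.5, and 18.9 CPM and the WD mice at 7.44, 10.7, and 14.6. No WD mouse reached the CD mice (-0.81, SE 0.19, adjusted p = 0.0032). In 129S1/SvImJ it went from 4.63, 6.07, and 7.88 to 1.60, 2.26, and 3.00 CPM (-1.40, SE 0.28, adjusted p = 8.24e-05), and in PWK/PhJ from 3.44, 4.66, and 7.31 to 1.58, 1.83, and 2.85 CPM (-1.27, SE 0.29, adjusted p = 0.00033). The diets did not overlap in either strain. In WSB/EiJ they did overlap, with CD at 6.10, 13.7, and 21.3 CPM and WD at 4.19, 5.90, and 10.5 (-1.001, SE 0.23, adjusted p = 0.00123), and 3 of 6 WD mice were below all CD mice. In CAST/EiJ it went from 1.15, 3.25, and 5.18 to 0.388, 0.803, and 1.30 CPM (-1.71, SE 0.39, adjusted p = 0.000595). There, 7 of 8 WD mice were below all CD mice, and the value was -1.46 with an adjusted p of 0.221 without cohort 4.

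DBA/2J was the strain with no call for Setd4. Its CD mice were at 3.34, 4.37, and 5.69 CPM and its WD mice at 2.84, 3.57, and 5.74 CPM (-0.16, SE 0.26, adjusted p = 0.748). The 95% interval of this change ran from -0.68 to 0.35. The diet effect in DBA/2J was above the average of the other 6 strains by 1.03 (SE 0.29, adjusted p = 0.0162), and within its cohorts it was 0.19 in cohort 4 and -0.62 in cohort 5.

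Smarca4, the BRG1 ATPase at chr9:21616169-21704230 on the plus strand, rose in 5 strains and had a mean effect of 0.32 (SE 0.03, adjusted p = 5.87e-18). In DBA/2J Smarca4 went from 52.4, 55.1, and 59.6 CPM to 68.1, 82.0, and 91.8 CPM (0.54, SE 0.07, adjusted p = 5.93e-09), and in C57BL/6J from 44.4, 51.4, and 59.5 to 52.8, 78.3, and 83.5 CPM (0.51, SE 0.06, adjusted p = 8.54e-10). All 7 WD mice of DBA/2J and 7 of 8 of C57BL/6J were above every CD mouse of their strain. It also rose in A/J (0.31, adjusted p = 0.00385), 129S1/SvImJ (0.34, adjusted p = 0.000114), and PWK/PhJ (0.24, adjusted p = 0.00443).

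No call for Smarca4 was made in WSB/EiJ (0.17, adjusted p = 0.143) or CAST/EiJ (0.11, adjusted p = 0.233). The effect in CAST/EiJ was -0.24 against the mean of the other 6 strains (SE 0.07, adjusted p = 0.0145), while in WSB/EiJ the difference of -0.17 did not pass (SE 0.08, adjusted p = 0.357). Without cohort 4 the CAST/EiJ difference was -0.32 with an adjusted p of 0.0803. C57BL/6J and DBA/2J exceeded the mean of the others by 0.22 (adjusted p = 0.0404) and 0.26 (adjusted p = 0.0229). On CD the strains were nearly level, with a fold range of 1.17 between strain means.

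Kdm3a, an H3K9 demethylase whose loss in mice leads to obesity, had a mean effect of -0.32 (SE 0.04, adjusted p = 1.33e-10) and fell in 4 strains. In DBA/2J Kdm3a went from 25.6, 27.9, and 37.7 CPM to 17.0, 19.3, and 23.7 CPM (-0.58, SE 0.11, adjusted p = 2.39e-05), with no overlap, and in C57BL/6J from 23.0, 25.3, and 33.1 to 13.2, 18.6, and 23.7 CPM (-0.54, SE 0.09, adjusted p = 5.42e-06), with 7 of 8 WD mice below all CD mice. The falls in A/J (-0.37, adjusted p = 0.0317) and 129S1/SvImJ (-0.28, adjusted p = 0.0425) were nearer the threshold, and the call was lost in 8 of 11 and 8 of 13 repeats with 1 mouse left out, respectively. In 129S1/SvImJ it was also lost with DESeq2, upper-quartile normalization, and 2 other filters. PWK/PhJ had the smallest change (-0.10, adjusted p = 0.516).

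Hdac11, the class IV deacetylase, which also removes fatty acyl groups from proteins, had a mean effect of 0.26 (SE 0.05, adjusted p = 2.39e-06) and rose in 4 strains. In A/J the CD mice were at 28.7, 31.2, 47.7, 40.2, and 38.8 CPM and the WD mice at 47.5, 49.4, and 51.4 (lowest, median, highest), with 5 of 6 WD mice above all CD mice (0.42, SE 0.13, adjusted p = 0.0257). In DBA/2J it went from 22.7, 24.9, and 30.7 to 28.3, 33.0, and 45.5 CPM (0.45, SE 0.12, adjusted p = 0.00451), with 6 of 7 WD mice above. The call in C57BL/6J (0.41, adjusted p = 0.00272) came with a change of 0.81 in cohort 1 and -0.01 in cohort 2. In CAST/EiJ it was 0.42 (adjusted p = 0.0236) and 0.25 with an adjusted p of 0.693 without cohort 4. PWK/PhJ was at -0.15, which was -0.48 against the mean of the other 6 strains (SE 0.13, adjusted p = 0.0058).

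Chd1l (ALC1), a remodeller recruited by poly(ADP-ribose) at DNA breaks, had a mean effect of 0.53 (SE 0.06, adjusted p = 1.09e-12) and rose in 4 strains. In DBA/2J Chd1l went from 8.18, 9.50, and 11.8 CPM to 13.2, 15.4, and 21.7 CPM (0.80, SE 0.15, adjusted p = 5.66e-05), and in 129S1/SvImJ from 11.2, 11.6, and 13.6 to 15.8, 17.2, and 19.4 CPM (0.54, SE 0.15, adjusted p = 0.00261), with no overlap in either strain. In WSB/EiJ the WD mice spread widely, from 11.3 to 35.1 CPM, against 9.39 to 13.3 on CD (0.94, SE 0.16, adjusted p = 9.94e-06), and 4 of 6 were above all CD mice. PWK/PhJ rose by 0.58 on the log2 scale (SE 0.14, adjusted p = 0.000832).

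**Figure D3:**
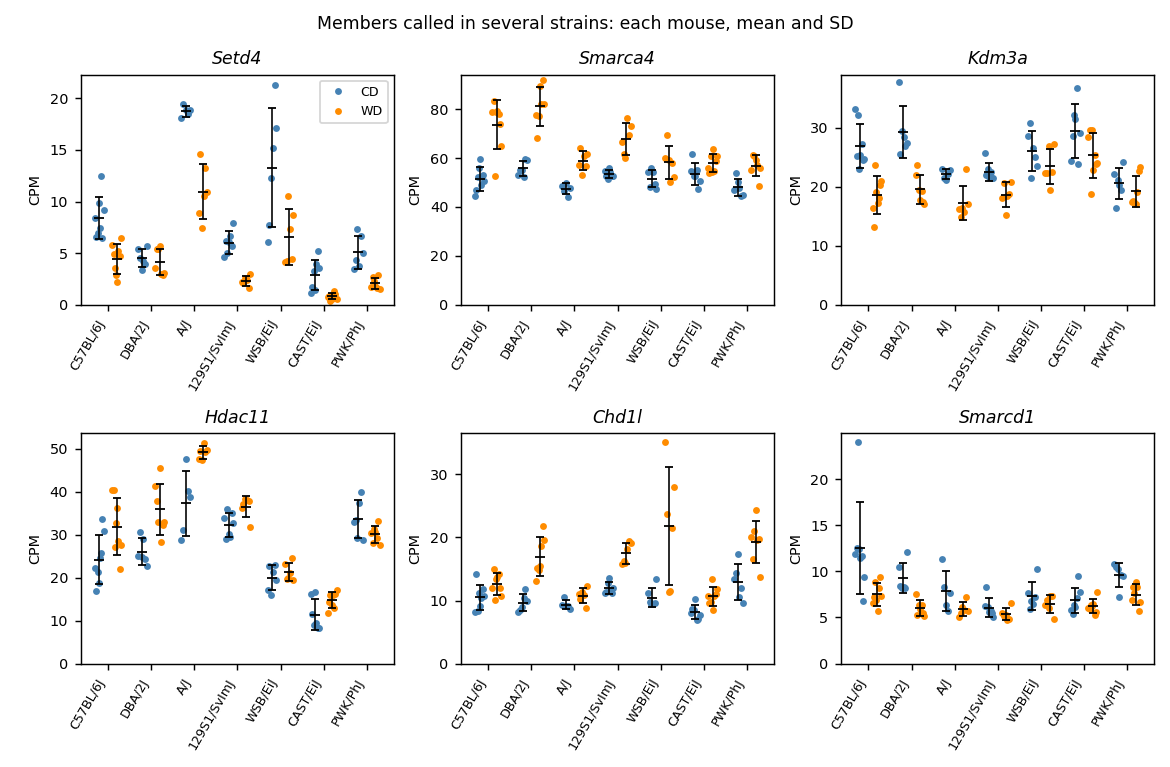
CPM of each mouse (points) with mean and SD (bars) on CD (blue) and WD (orange) in the 7 strains for Setd4, Smarca4, Kdm3a, Hdac11, Chd1l, and Smarcd1. The WD points of Setd4 lie below the CD points in C57BL/6J, A/J, 129S1/SvImJ, and PWK/PhJ, while in DBA/2J they span 2.84 to 5.74 CPM beside 3.34 to 5.69 on CD.

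The sequences upstream of 4 of these 5 genes are shown because each gene was called in the same direction in at least 4 strains. They are RefSeq promoter sequences of GRCm38.p6, limited to the bases before the gene start, printed 5′ to 3′ on the gene's strand, with GC boxes (GGGCGG on either strand) and, for Kdm3a, a CCAAT box in capitals. The regions are chr9:21615919-21616168 for Smarca4 (plus strand), chr6:91156565-91156664 for Hdac11 (plus), chr6:71632991-71633167 for Kdm3a (minus), and chr3:97610204-97610440 for Chd1l (minus).
Smarca4: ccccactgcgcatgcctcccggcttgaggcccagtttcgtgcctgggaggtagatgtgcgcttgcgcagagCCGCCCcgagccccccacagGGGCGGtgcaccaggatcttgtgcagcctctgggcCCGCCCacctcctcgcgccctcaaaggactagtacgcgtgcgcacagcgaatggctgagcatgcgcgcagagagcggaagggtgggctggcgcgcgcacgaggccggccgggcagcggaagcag
Hdac11: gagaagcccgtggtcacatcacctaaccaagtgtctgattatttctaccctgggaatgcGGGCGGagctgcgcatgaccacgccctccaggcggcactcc
Kdm3a: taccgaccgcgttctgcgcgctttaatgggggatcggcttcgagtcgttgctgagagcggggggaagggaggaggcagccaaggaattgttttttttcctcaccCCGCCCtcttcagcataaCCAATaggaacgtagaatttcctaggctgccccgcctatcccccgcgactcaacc
Chd1l: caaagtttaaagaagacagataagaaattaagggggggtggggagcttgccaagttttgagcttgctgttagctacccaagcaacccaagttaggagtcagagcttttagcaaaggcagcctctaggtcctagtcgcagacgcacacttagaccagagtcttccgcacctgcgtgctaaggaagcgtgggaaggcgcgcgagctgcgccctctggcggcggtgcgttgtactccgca

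The printed stretches differ in length, so their counts cannot be compared: 3 GC boxes for Smarca4 (250 bases), 1 for Hdac11 (100), 1 for Kdm3a (177), and 0 for Chd1l (237). In full windows of 250 bases, Smarca4 had 3 GC boxes, Hdac11 1, Kdm3a 2, and Chd1l 0. CCAAT boxes there numbered 0, 1, 2, and 0 in the same order. Setd4 is not printed because only 2 bases of its window lie before the gene start. Matches were counted as letters only, and no match in a window says nothing about binding. Over the 250 bases before the RefSeq start, 87 promoters of 64 members could be matched. A GC box was in 63.2% of them and in 32.7% of all 32851 promoters, CCAAT in 39.1% and 33.9%, the E-box CACGTG in 3.45% and 6.02%, and TATAAA in 4.60% and 12.4%, each on either strand. The members' promoters had a median of 19 CpG sites and 61.6% G and C bases, against 6 and 52.4% for all promoters.

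The diet effect was unequal between strains for 25 members by the F test, or 29.4% of them, against 37.5% of all genes. Against the average of the other 6 strains, the effect differed for 13 members in CAST/EiJ (14.5% of all genes), 11 in PWK/PhJ (16.3%), 6 in DBA/2J (7.77%), 6 in 129S1/SvImJ (6.28%), and 2 in C57BL/6J (4.69%). Without cohort 4, and so with fewer mice, all 13 differences in CAST/EiJ were lost, the lowest adjusted p of a member being 0.0803 (Smarca4). The share of all genes that passed there without cohort 4 was not counted. None passed that test in limma in A/J (0.466% of all genes, with 5 members at an unadjusted p below 0.05, 1 higher and 4 lower) or WSB/EiJ (0.947%, with 7 members, 4 higher and 3 lower). The 8 with the smallest p-values are described next, except Smarca4, given above. Hdac5, a class IIa deacetylase that shuttles between nucleus and cytoplasm, led them (adjusted p = 6.71e-06). In DBA/2J Hdac5 went from 42.0, 46.2, and 64.1 CPM on CD to 25.6, 32.3, and 45.6 CPM on WD, with 6 of 7 WD mice below all CD mice (-0.57, SE 0.09, adjusted p = 2.81e-06). In CAST/EiJ it went from 31.7, 38.9, and 39.9 CPM on CD to 39.9, 43.5, and 47.8 on WD, and the lowest WD mouse was just above the highest CD mouse (0.24, SE 0.09, adjusted p = 0.0411). This call was lost in 4 of 10 other settings, and without cohort 4 the value was 0.23 with an adjusted p of 0.531. The DBA/2J effect was -0.66 against the mean of the other 6 strains (SE 0.10, adjusted p = 3.4e-06), with -0.62 in cohort 4 and -0.53 in cohort 5.

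Kmt5c, which adds the last methyl group to H4K20 in constitutive heterochromatin, fell in C57BL/6J (-0.39, SE 0.09, adjusted p = 0.000292) and DBA/2J (-0.40, SE 0.09, adjusted p = 0.0013) and rose in CAST/EiJ (0.30, SE 0.10, adjusted p = 0.0268). In DBA/2J the CD mice were at 16.4, 18.8, and 20.9 CPM and the WD mice at 12.1, 14.5, and 15.9, with no overlap. The rise in CAST/EiJ was carried by cohort 4, at 0.51, beside -0.05 in cohort 1 and 0.14 in cohort 3. CD replicates 5, 6, and 7 there were at 7.36, 8.21, and 7.24 CPM and the WD mice at 10.6 to 15.3. Without cohort 4 the value of Kmt5c was 0.05 with an adjusted p of 0.969. The F test for Kmt5c gave an adjusted p of 0.000244 with all mice and 0.0105 without cohort 4.

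Arid5a, an ARID protein that also binds and stabilises inflammatory mRNAs, was called in 129S1/SvImJ only, where it rose. It went from 1.34, 1.90, and 2.41 CPM to 3.36, 4.34, and 5.14 CPM, with all 6 WD mice above the 7 CD mice (1.25, SE 0.18, adjusted p = 6.91e-08). This was above the mean of the other 6 strains by 1.07 (SE 0.20, adjusted p = 0.000271), and the change was 1.22 in cohort 3 and 1.30 in cohort 5. The leukocyte markers given above rose in the same strain, and their part in this change was not tested.

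Kdm1b rose in C57BL/6J (0.35, SE 0.10, adjusted p = 0.00577) and CAST/EiJ (0.61, SE 0.11, adjusted p = 9.79e-06). In CAST/EiJ the WD mice were at 32.6, 34.2, and 42.7 CPM, and 3 of 8 were above all CD mice. The change was 0.94 in cohort 4, 0.34 in cohort 3, and -0.02 in cohort 1, and without cohort 4 it was 0.24 with an adjusted p of 0.365. The 129S1/SvImJ effect of -0.19 was -0.44 against the mean of the other 6 strains (SE 0.12, adjusted p = 0.0147), and the F test gave 0.00502 without cohort 4.

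Hdac6, the tubulin deacetylase of the cytoplasm, fell in PWK/PhJ from 23.4, 26.8, and 29.2 CPM to 19.1, 21.3, and 24.1 CPM, with 6 of 7 WD mice below all CD mice (-0.30, SE 0.08, adjusted p = 0.00164). It also fell in 129S1/SvImJ (-0.21, SE 0.08, adjusted p = 0.0409), where 18.0 to 19.8 CPM on WD lay below 21.0 to 22.7 on CD. That call was lost in 3 of 9 other settings, namely upper-quartile normalization and both other filters. The PWK/PhJ effect was -0.32 against the mean of the other 6 strains (SE 0.08, adjusted p = 0.00382).

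Chd2, a CHD remodeller of transcribed genes, fell in 129S1/SvImJ from 23.5, 28.7, and 34.2 CPM to 14.8, 19.6, and 21.8 CPM, with no overlap (-0.59, SE 0.11, adjusted p = 1.2e-05), and in C57BL/6J with a log2 fold change of -0.43 (SE 0.10, adjusted p = 0.000258). PWK/PhJ was at 0.17 (adjusted p = 0.214), above the mean of the other 6 strains by 0.47 (SE 0.11, adjusted p = 0.00213). The 129S1/SvImJ effect was -0.43 against the mean of the 6 strains other than 129S1/SvImJ (SE 0.12, adjusted p = 0.0142).

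Setd7, which monomethylates H3K4 and several transcription factors, rose in PWK/PhJ from 2.94, 3.79, and 4.21 CPM to 4.83, 6.05, and 8.00 CPM, and all 7 WD mice were above the 6 CD mice (0.76, SE 0.18, adjusted p = 0.000416). It also rose in A/J, with all 6 WD mice (10.2 to 15.5 CPM) above the CD mice (7.81 to 10.1 CPM; 0.48, SE 0.15, adjusted p = 0.0312). The PWK/PhJ effect was above the mean of the other 6 strains by 0.62 (SE 0.19, adjusted p = 0.0132). The DBA/2J effect of -0.18 differed by -0.47 from the mean of the 6 strains other than DBA/2J (SE 0.14, adjusted p = 0.0218).

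**Figure D4:**
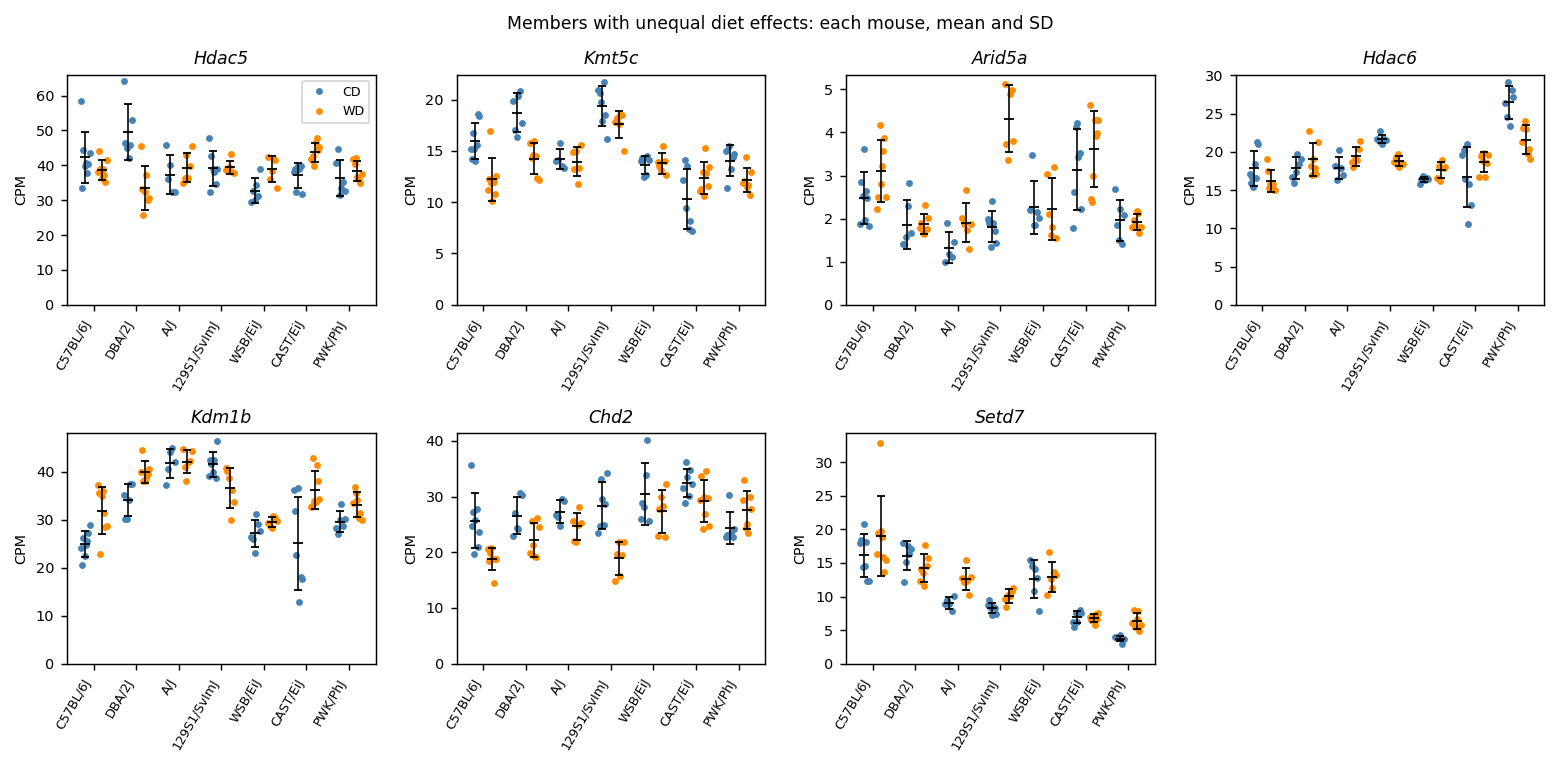
CPM of each mouse (points) with mean and SD (bars) on CD (blue) and WD (orange) in the 7 strains for Hdac5, Kmt5c, Arid5a, Hdac6, Kdm1b, Chd2, and Setd7. Arid5a on WD in 129S1/SvImJ lies at 3.36 to 5.14 CPM, above its CD points, and the CD points of Kdm1b in CAST/EiJ run from 12.8 to 36.6 CPM.

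Kdm1a, the LSD1 demethylase, is named because it was called in both directions. It fell in DBA/2J (-0.18, adjusted p = 0.00619), 129S1/SvImJ (-0.14, adjusted p = 0.0287), and WSB/EiJ (-0.16, adjusted p = 0.0476) and rose in PWK/PhJ (0.12, adjusted p = 0.0455), with an F test at 0.00501. All 4 changes were small. The DBA/2J fall passed in all 9 other settings, while the call was lost in 3 of 9 in 129S1/SvImJ, 4 of 9 in WSB/EiJ, and 2 of 9 in PWK/PhJ (edgeR, and genes of any count). Another member outside the rule for named genes, Smarca1, an ISWI ATPase at low level in these livers, had the largest fold among the members, chosen after its values were seen. In PWK/PhJ it was at 0, 0.0614, and 0.188 CPM on CD and 0.193, 0.223, and 0.335 CPM on WD (1.99, SE 0.49, adjusted p = 0.000966), so a few reads per mouse set this value.

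Baseline levels on CD differed between strains for 80 of the 85 members by the F test, where 93.7% of all genes did, so this share was near that of all genes. Against the other 6 strains, 36 members were higher and 22 lower in CAST/EiJ (32.4% and 31.5% of all genes), 18 and 32 in PWK/PhJ (30.2% and 28.4%), and 12 and 30 in C57BL/6J (29.5% and 28.4%). The counts were 18 and 13 in WSB/EiJ (25.4% and 23.8%), 18 and 10 in DBA/2J (22.9% and 19.4%), 19 and 11 in 129S1/SvImJ (23.6% and 20.6%), and 11 and 10 in A/J (20.5% and 16.2%). In C57BL/6J, the strain whose genome was used for mapping, 14.1% of the members were thus higher and 35.3% lower than in the others. Because reads of all strains were mapped to the C57BL/6J genome, a strain's expression and how well its reads map cannot be told apart. Strain and cohort cannot be fully told apart in these levels either, since WSB/EiJ mice alone made up cohorts 6 and 7. The other strains were spread unevenly over the remaining cohorts. For 13 members the strain means spanned at least 1 on the log2 scale. Setd4 had the widest range among members above 1 on the log2 CPM scale, 6.50-fold, with a mean of 18.8 ± 0.514 CPM in A/J (SD, n = 5) and 2.88 ± 1.50 CPM in CAST/EiJ (n = 7). In descending order, A/J was followed by WSB/EiJ (13.3 ± 5.75), C57BL/6J (8.41 ± 2.04), 129S1/SvImJ (6.02 ± 1.09), PWK/PhJ (5.08 ± 1.59), DBA/2J (4.53 ± 0.898) and CAST/EiJ, and each pair of neighbours in this order overlapped within 1 SD.

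Setd7 spanned 4.33-fold, from C57BL/6J (16.1 ± 3.15 CPM, n = 8) and DBA/2J (16.1 ± 2.14, n = 6) to PWK/PhJ (3.72 ± 0.424, n = 6). PWK/PhJ was at -1.54 on the log2 scale against the mean of the other 6 strains (SE 0.15, adjusted p = 9.66e-16). The same strain had the largest rise of Setd7 on WD, to 6.36 ± 1.18 CPM, which was still below the CD mean of CAST/EiJ (6.94 ± 0.965). Hdac11 spanned 3.28-fold, from A/J (37.3 ± 7.56 CPM) to CAST/EiJ (11.4 ± 3.65).

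Chd3 spanned 2.99-fold, with CAST/EiJ (243 ± 39.5 CPM) and DBA/2J (mean 231) high and 129S1/SvImJ (81.5 ± 8.64) and A/J (81.9 ± 3.28) low. Kdm2b, an H3K36 demethylase that brings polycomb complexes to CpG islands, spanned 2.65-fold and split the strains in a similar way, with 129S1/SvImJ (18.6 ± 2.45) and A/J (16.1 ± 2.09) above the other 5, which lay between 7.03 ± 1.23 and 9.12 ± 1.60 CPM. For Chd3 the pair was low and for Kdm2b it was high.

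Arid5a (2.36-fold, CAST/EiJ highest and A/J lowest), Kdm8 (2.19-fold, C57BL/6J highest and WSB/EiJ lowest), and Kmt5a (2.18-fold, DBA/2J highest and WSB/EiJ lowest) completed the 8 widest ranges. Kdm8, a JmjC protein, was at 3.46 ± 0.342 CPM in C57BL/6J and 1.58 ± 0.273 in WSB/EiJ, and its mean diet effect was -0.18 (SE 0.05, adjusted p = 0.00105) with no call in any strain. Kmt5a was at 42.0 ± 6.09 CPM in DBA/2J and 19.3 ± 3.25 in WSB/EiJ, which was -0.88 on the log2 scale against the mean of the other 6 strains. Per kb of exon, the members' mean levels on CD in C57BL/6J ran from 0.0528 to 20.9 CPM, with Smarcc2, a core SWI/SNF subunit, at the top and Smarca1 at the bottom.

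**Figure D5:**
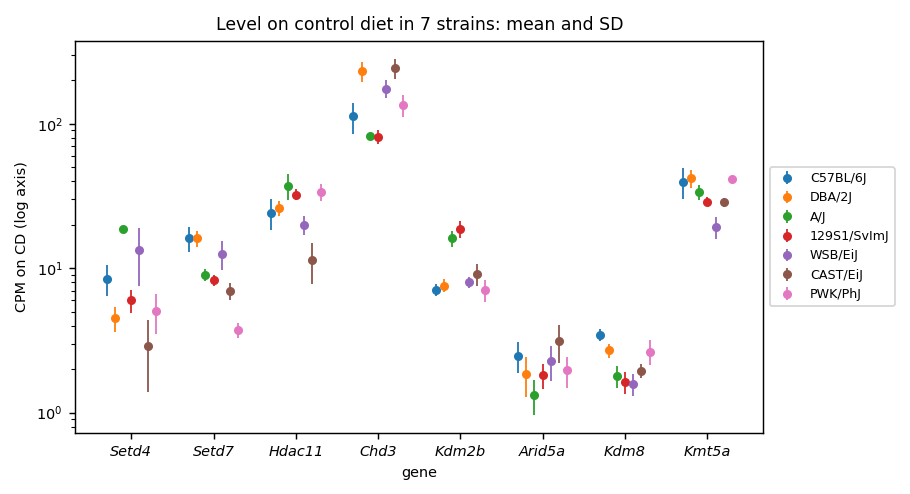
Mean and SD of CPM on CD (log axis) in each of the 7 strains for the 8 members with the widest range of strain means. Setd4 runs from 2.88 CPM in CAST/EiJ to 18.8 in A/J, and for Chd3 and Kdm2b A/J and 129S1/SvImJ lie together at opposite ends.

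Chromatin genes outside the symbol rule, in lists of partners, fell more often than they rose as well. Of 118 partners tested, 16 rose and 53 fell by the mean diet effect, with a median of -0.06 (27.1% and 24.5% of all genes), and in 129S1/SvImJ 6 rose and 41 fell (14.5% and 13.6%). With upper-quartile normalization 17 rose and 42 fell by the mean effect (30.2% and 20.7% of all genes), and in 129S1/SvImJ 10 rose and 26 fell (17.5% and 8.6%). The mean effect was lower for 11 of 30 polycomb genes, 13 of 19 other methyltransferases and their subunits, 12 of 27 acetyltransferase partners and sirtuins, 12 of 22 other remodellers, and 3 of 8 JmjC proteins, and higher for 3, 2, 3, 2, and 1 of them, respectively. DNA methylation genes were the list with more rises than falls, at 5 and 2 of 12.

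The coactivator acetyltransferases Crebbp and Ep300 fell in 129S1/SvImJ, Crebbp from 24.98, 26.8, and 29.9 CPM to 18.4, 20.9, and 23.1 (-0.38, SE 0.07, adjusted p = 7.57e-06) with no overlap, and Ep300 with a log2 fold change of -0.32 (SE 0.09, adjusted p = 0.00541). These partners are named after their values were seen. Ash2l, a core subunit of H3K4 methyltransferase complexes, fell there too (-0.29, SE 0.05, adjusted p = 4.97e-06). Cbx7, a polycomb chromodomain protein, fell in 129S1/SvImJ (-0.48, adjusted p = 0.00232) and PWK/PhJ (-0.76, adjusted p = 9.35e-06). Uhrf1, which guides maintenance DNA methylation in dividing cells, rose in 129S1/SvImJ from 0.105, 0.210, and 0.492 CPM to 0.624, 1.33, and 1.85 (2.27, SE 0.45, adjusted p = 6.24e-05) and in PWK/PhJ (1.80, SE 0.51, adjusted p = 0.00458). In these strains 5 and 4 of 6 proliferation markers rose as well, and their part in the Uhrf1 change was not tested.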

How the data were processed

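Liver RNA-seq of 93 mice in 14 groups (7 strains, CD or WD) was used. The authors deposited raw counts, whole reads per gene and mouse with no normalization. Per the labels and the study's methods, SMARTER libraries were sequenced on a BGISEQ-500 and mapped to the C57BL/6J genome, and the submitters' processing notes name STAR 2.7.1a and GRCm38 (mm10). The annotation release and strand setting of the counting are not given in the sources used here. GENCODE gene models gave symbols, positions, and overlaps, and RefSeq gave promoter sequences.

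The tools were limma 3.58.1 and edgeR 4.0.16, run under R 4.3.3. After filterByExpr (minimum count 10) and TMM scaling, 1 voom model held a coefficient per group. The effect of WD over CD was tested in each strain, averaged over strains, and compared between strains (F test, and 1 strain against the mean of the other 6). All tests were two-sided and adjusted by Benjamini–Hochberg over all genes that passed the filter, with a threshold of 0.05. The fit was tested on simulated data.

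Reads on genes numbered 40020424 to 49894856 a mouse (median 46618609), and counting error adds most to the spread of genes at low level. Groups came from the strain and diet labels, and cohorts from the cohort label. Alternatives were edgeR's quasi-likelihood test, DESeq2 1.42.0, upper-quartile normalization, 2 other filters, cohort or RNA integrity number as a term, separate fits, sample quality weights, and each mouse left out. Leaving out CAST/EiJ cohort 4, and fits within cohorts, were added after the data were seen.

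The members, role lists, partner lists, and marker lists were chosen with earlier results of these data known. Named members, above a mean log2 CPM of 1, were up to 3 rises and 3 falls per strain, the 8 smallest F test p-values for unequal diet effects, the 8 widest ranges on CD, members called alike in at least 5 strains, and 10 fixed catalytic genes. Partners, and members named beside a small count, were chosen after their values were seen.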

Additional observations from a re-analysis of the deposited data

Results flagged for a closer look

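Among 40 named diet effects, 8 stood apart from the average effect of the other 6 strains when limma tested the difference itself (adjusted p below 0.05). The 40 were picked as the largest called changes of each strain, so a raised share comes with the choice. Of all genes, 0.466% (A/J) to 16.3% (PWK/PhJ) passed this test, depending on the strain. On the log2 scale, the effect of Smarca4 was larger in C57BL/6J by 0.22 and in DBA/2J by 0.26. Hdac5 in DBA/2J differed by -0.66 and Arid5a in 129S1/SvImJ by 1.07. Chd2 in 129S1/SvImJ differed by -0.43, Setd7 in PWK/PhJ by 0.62, and Hdac6 in PWK/PhJ by -0.32. Kdm1b in CAST/EiJ differed by 0.50, and this one moved with CD replicates 5, 6, and 7 of cohort 4. Without cohort 4 the Kdm1b difference was 0.12 with an adjusted p of 0.714.

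Of 80 groups of 5 to 8 mice examined for the named effects, 4 had a mouse far from the others of its group, and chance gives about 1 in 20 groups. Smarcd1 was at 24.0 CPM in 1 C57BL/6J CD mouse (replicate 3), where the next was at 12.6 CPM, and at 7.22 CPM in 1 PWK/PhJ CD mouse, where the next lowest was at 9.47. Kdm3a was at 37.7 CPM in 1 DBA/2J CD mouse (next 29.3 CPM) and at 23.0 CPM in 1 A/J WD mouse (next 17.1 CPM).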

How the results depend on the processing

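Of 91 counts of called members under other settings, 83 stayed within 1.5 times the reported count. With upper-quartile normalization 21 members were called in 129S1/SvImJ. With sample quality weights 9 were called in WSB/EiJ and 26 in A/J. When strains were fitted separately, with fewer mice to estimate the spread, 14 were called in C57BL/6J, 13 in A/J, 1 in WSB/EiJ, and 8 in CAST/EiJ. With CAST/EiJ cohort 4 left out, limma-voom called 0 members there, and the mean diet effect was called for 51, unequal effects for 20, and strain differences on CD for 79. The cause of these shifts was not tested. Shares of all genes are given above only for upper-quartile normalization and for the CAST/EiJ calls without cohort 4. For the other settings, and with a mouse left out, the members' counts cannot be set against all genes.

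With each mouse left out in turn, the calls ranged from 23 to 36 in C57BL/6J, 17 to 20 in DBA/2J, 3 to 12 in A/J, 20 to 32 in 129S1/SvImJ, 3 to 6 in WSB/EiJ, 9 to 26 in CAST/EiJ, and 8 to 12 in PWK/PhJ, and from 54 to 62 for the mean effect, 23 to 29 for unequal effects, and 77 to 82 for strain differences on CD. A/J had 3 without CD replicate 1, CD replicate 2, or WD replicate 4 and 12 without WD replicate 5. CAST/EiJ had 9 without CD replicate 5 and 12 without CD replicate 7, 129S1/SvImJ had 20 without WD replicate 4, and WSB/EiJ had 3 without CD replicate 6.

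Named values kept their direction and side of the threshold in 412 of 438 cases under other settings and in 498 of 534 with a mouse left out, and the others lost their call with the same direction. Within cohorts, the called members had the same sign in both cohorts of DBA/2J (19 of 19) and A/J (6 of 6). They also did in 129S1/SvImJ (34 of 34), WSB/EiJ (5 of 5), and PWK/PhJ (11 of 11). In cohort 2 of C57BL/6J 26 of 30 did, and in cohort 1 of CAST/EiJ 13 of 20. The calls came from these same mice, so a shared sign largely comes with the choice and is no separate test of the calls. The matching share of all called genes was not counted. No paired analysis was possible because replicate numbers were given in accession order and pair no mice. Depth limits members at low level, of which 4 were below a mean log2 CPM of 1.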
